A study of Homo sapiens with 2 samples.

Results

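The genes encoding albumin and 9 further proteins that the liver secretes into plasma were followed in Hep3B, an established hepatoma cell line of human origin that is known to be without p53. The 10 genes were taken by symbol from the deposited counts: ALB, TTR, TF, RBP4, AHSG, AMBP, HPX, HP, VTN and FETUB. All 10 were found among 43424 symbols. The control library was made from cells labelled wild type and given the solvent dimethyl sulfoxide (DMSO). The second was made from cells of the same label given GLE, which is extracted from Glehnia littoralis, a plant of sea coasts. Both were grown in medium with 10% serum, and neither carried an engineered allele according to the labels. For the sequenced cells, neither dose nor exposure time is given in the sources used here. Each condition had 1 library from 1 line, so no difference below has a replicate check, no test between conditions was made, and variation between cultures cannot be told apart from an effect of the extract.

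Hepatocytes make most plasma proteins and release them through the secretory pathway, and their genes are driven by liver-enriched transcription factors such as HNF4, FOXA and C/EBP proteins. Albumin holds much of the osmotic pressure of plasma and carries fatty acids, bilirubin and drugs. Transthyretin (TTR) carries thyroxine and also binds retinol-binding protein (RBP4), which brings vitamin A from the liver to other tissues. Transferrin (TF) carries iron, hemopexin (HPX) carries free heme, and haptoglobin (HP) captures free hemoglobin. Fetuin-A (AHSG) and fetuin-B (FETUB) are cystatin-like proteins, of which fetuin-A keeps calcium phosphate in solution and fetuin-B inhibits the egg protease ovastacin. AMBP is cut into the lipocalin alpha-1-microglobulin and the protease inhibitor bikunin, and vitronectin (VTN) joins cells to matrix through integrins.

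Total counts were 5618328 for the control and 3636351 for GLE. A floor of 3 counts stood at 0.519 CPM (counts per 1000000 counts of the scaled library) in the control and 0.848 CPM with GLE. Counts were scaled by the trimmed mean of M-values (TMM), and each ratio of GLE over control is given with a 95% interval that covers counting error only. A gene was called measured with at least 30 counts over both libraries, which 11068 genes reached. Mitochondrial ribosomal RNA took 8.52% of control counts and 13.2% of GLE counts, and its part in the ratios below was not tested. All 10 listed hepatocyte and hepatoma markers were measured, with summed levels of 15032 and 12082 CPM. That sum includes ALB itself, at 4325 and 2708 CPM, APOA2 at 7232 and 7146 CPM, and APOB at 1662 and 636 CPM. The markers did not move together. APOB at 0.383 and FGB at 0.448 were the 2 at least 2-fold lower, and 0 were at least 2-fold higher. Over all measured genes these shares were 10.5% and 9.54%. An interval below 1 was found for 6, beside 30.1% of all measured genes. It lay above 1 for 2, SERPINA1 at 1.45 and KRT18 at 1.08, beside 27.7%.

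Promoters are shown for the 5 carrier genes with most counts, because their ratios ran from the lowest of all measured carrier genes to the highest. Each line gives the 200 bases before a RefSeq transcription start (GRCh38.p14), 5′ to 3′ on the gene's strand. Capitals mark letters searched on both strands. They were TATAAA for the TATA-binding protein, CCAAT for the factor NF-Y, TTNNGNAA as a loose form of C/EBP sites, AGGTCA for nuclear receptors and TTCNNNGAA for STAT proteins. The ALB stretch is chr4:73404087-73404286 on the plus strand. The AHSG stretch is chr3:186612860-186613059 and the TF stretch is chr3:133746193-133746392, both on the plus strand. The AMBP stretch is chr9:114078301-114078500 and the RBP4 stretch is chr10:93601236-93601435, both on the minus strand.
ALB: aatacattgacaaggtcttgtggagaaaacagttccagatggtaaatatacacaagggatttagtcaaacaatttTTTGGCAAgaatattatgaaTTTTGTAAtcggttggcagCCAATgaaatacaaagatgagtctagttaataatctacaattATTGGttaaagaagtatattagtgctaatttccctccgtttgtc
TF: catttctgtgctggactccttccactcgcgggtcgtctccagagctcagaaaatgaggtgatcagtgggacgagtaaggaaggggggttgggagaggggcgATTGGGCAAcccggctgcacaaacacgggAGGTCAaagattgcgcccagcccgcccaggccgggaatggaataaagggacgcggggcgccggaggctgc
AMBP: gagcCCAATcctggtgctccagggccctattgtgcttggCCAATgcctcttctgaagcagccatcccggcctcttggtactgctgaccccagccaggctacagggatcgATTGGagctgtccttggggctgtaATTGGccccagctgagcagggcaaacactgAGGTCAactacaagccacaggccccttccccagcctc
AHSG: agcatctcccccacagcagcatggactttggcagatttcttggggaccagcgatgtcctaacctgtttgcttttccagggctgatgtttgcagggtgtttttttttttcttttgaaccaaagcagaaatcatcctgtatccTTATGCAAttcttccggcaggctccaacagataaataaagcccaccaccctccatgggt
RBP4: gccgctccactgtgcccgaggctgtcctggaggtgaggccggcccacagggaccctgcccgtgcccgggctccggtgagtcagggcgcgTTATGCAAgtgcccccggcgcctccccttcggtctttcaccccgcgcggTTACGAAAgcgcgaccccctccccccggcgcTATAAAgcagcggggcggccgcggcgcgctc

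The letters were counted over the 250 bases before each start, in 12 windows of the carrier genes and in 35116 RefSeq windows in all. The RefSeq table held windows for all but TTR and HP. The ALB window had 4 matches to the C/EBP-type letters, which 8 of 12 carrier windows and 33.2% of all windows held. CCAAT was in 7 of 12 carrier windows and 32.0% of all, AGGTCA in 4 and 12.1%, TATAAA in 3 and 10.7%, and TTCNNNGAA in 2 and 6.57%. TF, RBP4 and FETUB had more than 1 window, and for TF and RBP4 1 of them is printed. The TF window not printed, before the start at 133661998, had 0 matches to any of the letters, against 3 in the printed one. The RBP4 windows not printed, before 93601744 and 93601513, had 1 and 4. Within the stretches printed, base composition ran from 32% G and C in ALB to 74% in RBP4. TTNNGNAA and CCAAT overlap by several letters in the TF stretch (capitals ATTGGGCAA). A match is a description of letters and not a bound site.

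ALB and TTR were lower in the GLE library, TF and AMBP were lower by smaller amounts, and AHSG and RBP4 were near the control level. Of the 8 measured carrier genes, 0 were at least 2-fold lower and 0 at least 2-fold higher, where 10.5% of all measured genes were at least 2-fold lower and 9.54% at least 2-fold higher. The counting interval lay below 1 for 4 of the 8 and above 1 for 1, against 30.1% and 27.7% of all measured genes. That interval narrows with depth. Among the 1488 genes with at least 1000 counts, 37.7% had an interval below 1 and 37.6% above, while 3.23% were at least 2-fold lower and 3.09% at least 2-fold higher. Of the 5 carrier genes of that depth, 3 (ALB, TF and AMBP) had an interval below 1 and 1 (RBP4) above, with 0 beyond 2-fold. The median log2 ratio of the 8 was -0.22, beside -0.04 over all measured genes. With so few genes, these counts are not read as particular to the carrier genes, and ALB had the lowest ratio among them. Only 7.73% of the well counted genes had a lower ratio than ALB, against 32.8% for TF, 40.9% for AMBP, 52.3% for AHSG and 60.0% for RBP4.

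**Figure D1:**
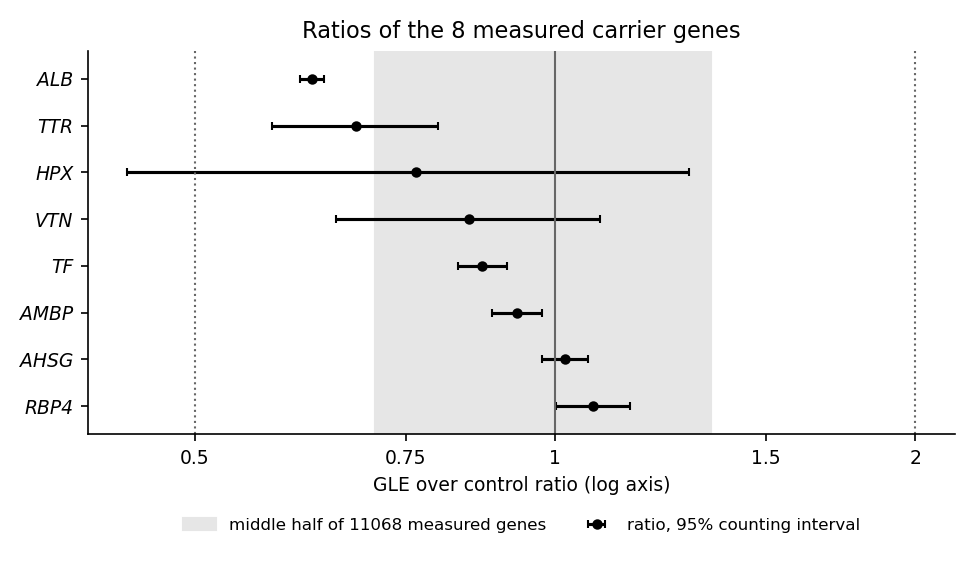
GLE over control ratio (log axis) of the 8 measured carrier genes, with 95% counting intervals. The grey band spans the middle 2 quartiles of 11068 measured genes, and dotted lines mark 2-fold. ALB at 0.626 and TTR at 0.681 lie left of the band, and RBP4 at 1.08 is the highest.

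ALB, on chromosome 4 (73404287 to 73421482), was read 24988 times in the control and 9574 times with GLE. That was 4325 CPM (4271 to 4379) against 2708 CPM (2654 to 2762), a ratio of 0.626 (0.611 to 0.641). By counts it ranked 12 among all control symbols and 23 among those of the GLE library. The 10 genes together took 0.758% of control counts (exact binomial 95% interval by Clopper and Pearson, 0.751 to 0.765), and their share of the GLE library was 0.543% (0.536 to 0.551). Their summed level was 7371 CPM in the control against 5588 with GLE, and ALB made up 90.7% of that difference. Without ALB, the other 9 summed to 3046 CPM (control) and 2881 CPM (GLE), a ratio of 0.946 (0.923 to 0.969). The lower sum of plasma carrier messages in the GLE library was therefore mostly the lower count of ALB itself.

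**Figure D2:**
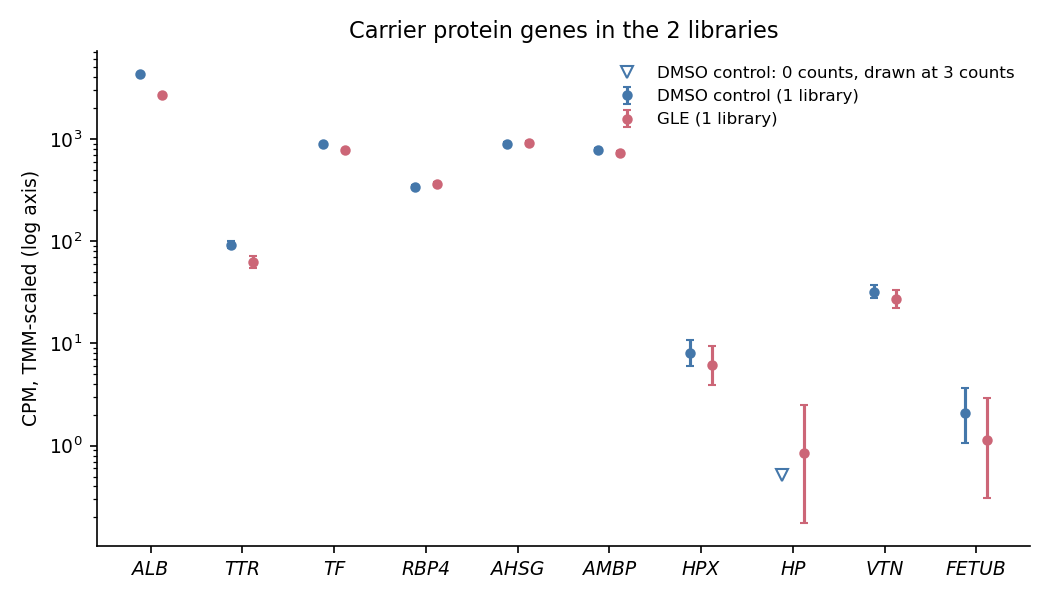
Level of each of the 10 genes in CPM (log axis), with exact 95% counting intervals, for the control (blue) and GLE (red) libraries. ALB drops from 4325 to 2708 CPM between the libraries, while HP had 0 control counts and is drawn at the floor of 3 counts, 0.519 CPM.

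The hormone and vitamin carriers TTR and RBP4, whose proteins travel together in plasma, lay on opposite sides. TTR, on chromosome 18 (31591877 to 31598821), was counted 535 and 223 times, or 92.6 CPM (84.9 to 100.8) and 63.1 CPM (55.1 to 71.9). Its ratio was 0.681 (0.580 to 0.798), and the intervals of the libraries did not overlap. RBP4, on chromosome 10 (93591694 to 93601744), had 1943 and 1279 counts, or 336 CPM (321 to 352) and 362 CPM (342 to 382). Its ratio was 1.08 (1.002 to 1.15), but the interval took in 1 when the libraries were scaled by total counts (1.02, 0.947 to 1.09) or by upper quartiles (1.06, 0.984 to 1.13). Set against each other, which needs no scaling, TTR had 0.275 counts per RBP4 count in the control against 0.174 with GLE. That is a relative ratio of 0.633 (0.531 to 0.754).

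Among the carriers of iron, heme and hemoglobin, TF was the only one with more than 100 counts. TF, on chromosome 3 (133661998 to 133796641), was counted 5152 and 2741 times, or 892 CPM (867 to 916) and 775 CPM (746 to 805). The ratio was 0.869 (0.830 to 0.911). The RefSeq span of TF overlaps SRPRB, a subunit of the signal recognition particle receptor with 776 and 370 counts, and reads in shared sequence cannot be assigned with certainty. HPX, on chromosome 11 (6431049 to 6440987), had 47 and 22 counts, and its ratio of 0.765 (0.439 to 1.29) allows anything from a fall of over 2-fold to a small rise, so no difference was detectable at this depth.

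HP, on chromosome 16 (72054505 to 72061055), was counted 0 times in the control and 3 times with GLE. Both libraries were at or under the floor, so no ratio is given, and the control count of 0 is set against the floor of 3 counts, 0.519 CPM. HP has a near-identical neighbour, HPR, with 0 counts in both libraries, and reads that fit both may not have been counted. The haptoglobin message was thus not detectable in the control, which is a statement about these counts and not about the protein.

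AHSG and AMBP, the most counted carrier genes after ALB together with TF, stayed close to the control. AHSG, on chromosome 3 (186613060 to 186621318), had 5185 and 3234 counts, or 897 CPM (873 to 922) and 915 CPM (883 to 947). Its ratio of 1.02 (0.975 to 1.07) took in 1. It was 0.964 (0.922 to 1.01) with scaling by total counts, so its direction depends on the scaling. AMBP, on chromosome 9 (114060127 to 114078300), had 4543 and 2584 counts, or 786 CPM (764 to 809) and 731 CPM (703 to 760). Its ratio was 0.929 (0.885 to 0.976), and with the trend in transcript GC content removed it was 0.997 (0.95 to 1.05).

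The neighbouring fetuin gene was barely counted. FETUB, on chromosome 3 (186635969 to 186653141), was counted 12 and 4 times, too few to be measured, with a ratio of 0.545 (0.128 to 1.80). AHSG and FETUB lie side by side on chromosome 3, and only AHSG was read in quantity. VTN, on chromosome 17 (28367284 to 28370307), had 185 and 96 counts, or 32.0 CPM (27.6 to 37.0) and 27.2 CPM (22.0 to 33.2). Its ratio was 0.848 (0.656 to 1.09), a difference too small to detect with so few counts.

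The makeup of the carrier counts does not depend on how the libraries are scaled to each other. ALB took 58.7% of the counts of the 10 genes in the control (58.2 to 59.1) but 48.5% with GLE (47.8 to 49.2). AHSG took 12.2% (11.9 to 12.5) and 16.4% (15.9 to 16.9). The share of TF was 12.1% (11.8 to 12.4) against 13.9% (13.4 to 14.4), and that of AMBP was 10.7% (10.4 to 11.0) against 13.1% (12.6 to 13.6). RBP4 took 4.56% (4.37 to 4.76) and 6.47% (6.13 to 6.82), and TTR 1.26% (1.15 to 1.37) and 1.13% (0.986 to 1.29). The shares of AHSG, TF, AMBP and RBP4 were larger in the GLE library as that of ALB was smaller, while the intervals of TTR overlapped. Shares of a whole are tied together, so a smaller ALB share by itself leaves larger shares to the others. TF and AMBP took larger shares although their GLE over control ratios were 0.869 and 0.929. These are shares of reads from a kit that reads the 3′ end of messages, not of molecules, and levels of different genes were not compared per length.

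**Figure D3:**
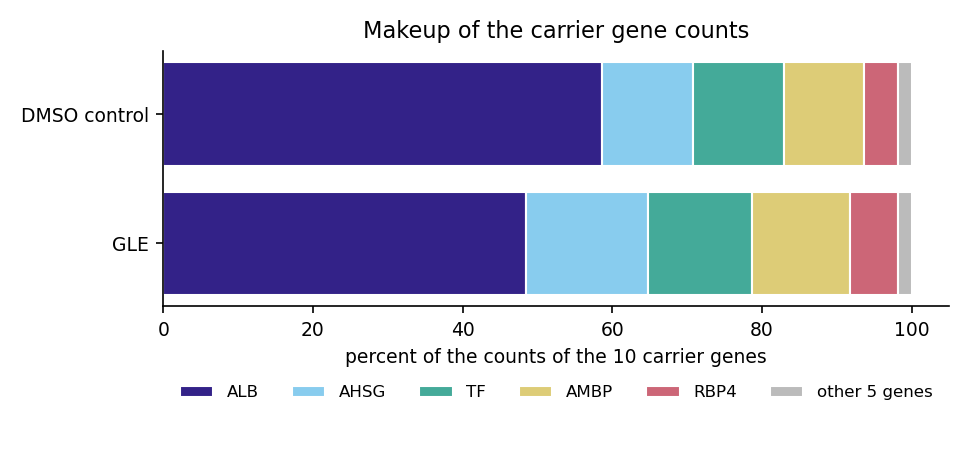
Percent of the counts of the 10 carrier genes taken by each of the 5 most counted genes and by the other 5, in each library. The ALB segment shrinks from 58.7% (control) to 48.5% (GLE).

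Pairs of carrier genes were compared in the same way, as the ratio of the GLE over control ratios. Of 28 pairs of the 8 measured genes, the interval excluded 1 for 13. The pairs share genes and their intervals narrow with depth. Among single genes with at least 1000 counts, 37.7% had an interval below 1 and 37.6% above. The share over pairs of all genes was not computed, so the count is not read as particular to the carrier genes. ALB was lower relative to 5 of the 7 others, namely TF, RBP4, AHSG, AMBP and VTN. There were 4.82 ALB counts per AHSG count in the control against 2.96 with GLE, a relative ratio of 0.614 (0.584 to 0.646). ALB and TTR were not told apart, at 0.919 (0.783 to 1.08), and the pair of ALB and HPX gave 0.819 (0.483 to 1.43). TF was lower relative to AHSG, at 0.853 (0.800 to 0.910). RBP4 and AHSG, at 1.06 (0.970 to 1.15), were not told apart. In order of ratio, ALB and TTR were at the low end, TF and AMBP between, and AHSG and RBP4 at the high end. HPX and VTN had too few counts to be placed.

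Transcript base composition differed among these genes and did not follow that order throughout. The longest coding transcripts of ALB and TF had 41.3% and 42.2% G and C, and that of TTR had 46.9%, while RBP4, AHSG and AMBP had 57.8%, 53.7% and 56.9%. This GC content is that of the whole transcript, whereas the kit reads the 3′ end, and the GC content of the stretches read was not tested. Removal of the trend of log2 ratio with whole-transcript GC content over all genes did not bring ALB nearer to 1, at 0.587 (0.573 to 0.601), nor TF, at 0.819 (0.782 to 0.858). AMBP moved from 0.929 to 0.997 (0.95 to 1.05), RBP4 was then at 1.16 (1.08 to 1.25) and AHSG at 1.06 (1.01 to 1.11). The number of carrier genes with an interval below 1 was then 3 in place of 4.

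**Figure D4:**
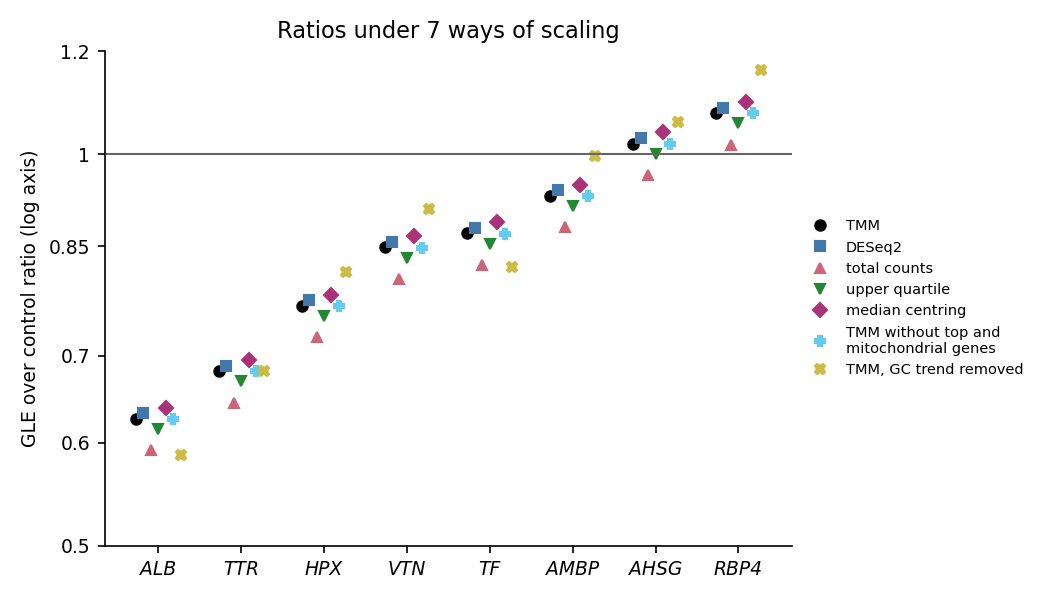
GLE over control ratio (log axis) of the 8 measured carrier genes under 7 ways of scaling. ALB stays between 0.587 and 0.639 and RBP4 between 1.02 and 1.16, while AHSG crosses 1.

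The albumin gene family lies together on chromosome 4 and holds ALB, AFP, AFM and GC. AFP, the fetal counterpart of albumin, had 3389 and 1490 counts and a ratio of 0.718 (0.676 to 0.764). GC, the vitamin D carrier, had 7424 and 2146 counts and a ratio of 0.472 (0.450 to 0.496), lower than that of ALB with intervals that did not overlap. AFM, the vitamin E binder afamin, had 6 and 1 counts and was not measured. All 3 measured genes of the family, ALB among them, were lower in the GLE library. An interval below 1 was found for 30.1% of all measured genes. For genes with at least 1000 counts, as these 3 had, it was 37.7%.

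Among other plasma carriers and binders, most measured genes were lower. Of 24 listed, 15 were measured, 4 were at least 2-fold lower and 1 at least 2-fold higher, beside 10.5% and 9.54% of all measured genes. An interval below 1 was found for 11 and above 1 for 3, beside 30.1% and 27.7%, around a median log2 ratio of -0.55. AFP and GC of the albumin family are counted here again. LRG1, a leucine-rich plasma glycoprotein, had a ratio of 0.272 (0.211 to 0.348), and the kininogen KNG1 0.326 (0.245 to 0.428). IGFBP1, which binds insulin-like growth factors, went from 22 to 75 counts, a ratio of 5.57 (3.42 to 9.41). The difference between this list and the 10 genes was not tested.

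Receptors and partners of the carriers lay on both sides. Of 25 listed, 16 were measured, 4 were at least 2-fold lower and 2 at least 2-fold higher, beside 10.5% and 9.54% of all measured genes. The counting interval lay below 1 for 6 and above 1 for 4, beside 30.1% and 27.7%, around a median log2 ratio of -0.22. The 4 lower ones were FCGRT, LRP1, AMN and STRA6, the last pair named after their values were seen. FCGRT, the receptor that recycles albumin and antibodies, had 667 and 186 counts, a ratio of 0.456 (0.385 to 0.537). LRP1, the receptor that clears the hemopexin and heme complex, was at 0.455 (0.315 to 0.644). HMOX1, which degrades heme, was at 2.19 (1.70 to 2.82). TFRC, the transferrin receptor, was at 0.703 (0.657 to 0.752), below TF itself at 0.869. CD163, the haptoglobin and hemoglobin receptor of macrophages, had 0 and 1 counts.

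Most measured liver transcription factors were lower in the GLE library. Of 23 listed, 19 were measured, 11 were at least 2-fold lower and 0 at least 2-fold higher, beside 10.5% and 9.54% of all measured genes. An interval below 1 was found for 17 and above 1 for 0, beside 30.1% and 27.7%, around a median log2 ratio of -1.14. ONECUT1, a liver-enriched factor, was at 0.276 (0.223 to 0.340). NR0B2, a repressor of bile acid synthesis, was at 0.0643 (0.0329 to 0.114). HNF4A was at 0.372 (0.317 to 0.434) and CEBPA at 0.357 (0.317 to 0.402), while CREB3L3 at 0.790 (0.604 to 1.03) showed no detectable difference. Every one of the 8 carrier ratios, from 0.626 to 1.08, was above those of HNF4A and CEBPA, and no link between factor and carrier counts was tested.

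Of 15 listed acute-phase signalling genes, 10 were measured. There was 1 at least 2-fold lower and 1 at least 2-fold higher, beside 10.5% and 9.54% of all measured genes. The counting interval lay below 1 for 5 and above 1 for 2, beside 30.1% and 27.7%. The median log2 ratio of the 10 was -0.30. CEBPD, a transcription factor of the acute-phase response, was at 0.449 (0.384 to 0.522). IL6R and TNFRSF1A, receptors for interleukin-6 and tumour necrosis factor, were at 0.528 (0.340 to 0.798) and 0.527 (0.429 to 0.644). JAK2 had 17 and 23 counts, a ratio of 2.21 (1.13 to 4.41), and STAT3 was at 0.817 (0.625 to 1.06). CRP had 0 counts in both libraries and SAA1 4 and 8, and none of the CRP and SAA genes in the list was measured, as was the case for HP. This does not extend to plasma proteins outside the list, such as ORM1, which had 258 and 103 counts.

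Genes that bring secreted proteins into the secretory pathway did not lie to one side. All 35 were measured, with 1 at least 2-fold lower and 2 at least 2-fold higher, beside 10.5% and 9.54% of all measured genes, and a median log2 ratio of -0.02. An interval below 1 was found for 10 and above 1 for 13, beside 30.1% and 27.7%. SEC61G and SEC61B, subunits of the protein channel of the endoplasmic reticulum, were at 2.81 (2.39 to 3.30) and 2.09 (1.88 to 2.32). SRP54, which reads the signal peptide, was at 1.92 (1.65 to 2.24). SPCS3, a subunit of the complex that removes the signal peptide, was at 0.391 (0.329 to 0.463).

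**Figure D5:**
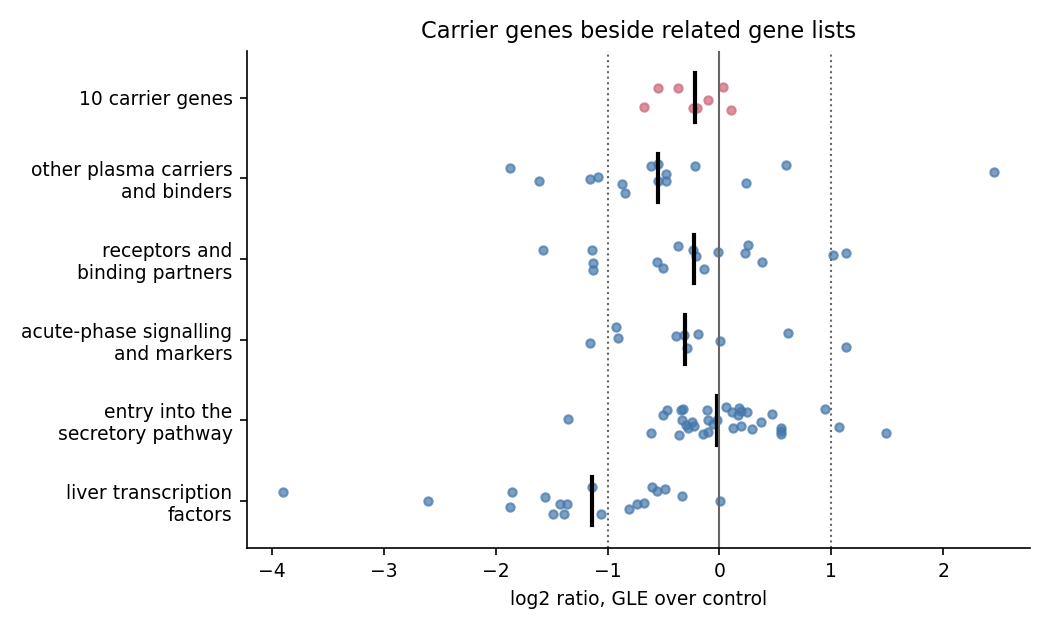
Log2 ratio of GLE over control for each measured gene of the carrier genes (red) and of 5 related lists (blue), with list medians as black bars and dotted lines at 2-fold. The carrier genes span -0.68 to 0.11 around a median of -0.22, and the liver transcription factors have a median of -1.14.

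By ratio alone, the 3 genes nearest to ALB among those with at least 1000 counts were CYC1 at 0.625, SUPT16H at 0.625 and MED1 at 0.624. This likeness rests on 1 ratio from 2 libraries and says no more than that such a ratio was shared by genes of other kinds.

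Markers of stellate cells and fibroblasts, macrophages, endothelium and lymphocytes were low, while those of cholangiocytes were not. Summed levels, control before GLE, were 5.71 and 28.0 CPM for 8 stellate cell and fibroblast markers, 27.0 and 30.3 CPM for 7 macrophage markers, and 6.23 and 0.283 CPM for 6 endothelial markers. Defining markers at 0 in both libraries included VWF, CDH5, CD3E and MARCO. Others in these lists were counted, control before GLE. PECAM1, with 36 and 1 counts, made up all of the endothelial sum, a ratio of 0.0454 (0.00112 to 0.270). CD68 had 117 and 96 counts and CD14 37 and 9, while RGS5 had 3 and 23 and DCN 0 and 9. Of the stellate list, COL1A1 was the only measured gene, with 4 and 29 counts. The 6 cholangiocyte markers, some of which hepatoma cells also express, summed to 598 and 446 CPM, with EPCAM at 378 and 271 CPM. The part of these in the carrier ratios was not tested. In bulk RNA, fewer cells making a message and less message per cell cannot be told apart.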

How the data were processed

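The authors deposited 1 file of raw counts for each library, with whole numbers by gene symbol and no normalization. Libraries were made from 500 ng of RNA with a Lexogen QuantSeq kit, per the labels' protocols. Use of fastp, STAR and HTSeq and the build GRCh38 is per the submitters' processing notes. For these, no version, annotation or strand setting is given in the sources used here, so reads of overlapping or antisense genes cannot be told apart.

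Counts were scaled by TMM in edgeR 4.0.16 (R 4.3.3), with factors of 1.03 and 0.972. Ratios carry exact Clopper-Pearson 95% intervals of the GLE share of a gene's counts. Relative ratios of gene pairs carry exact conditional odds ratio intervals (SciPy 1.17.1). Since no molecular identifiers are named and reads need not be independent molecules, intervals and floors cover counting error only. Log2 ratios had 0.5 added to each count. The computation was tested on simulated counts. The 10 genes and all lists were chosen with earlier results of these data known. Named were the 10 genes, up to 4 genes per list with the interval bound farthest from 1, 10 genes named whatever their values, and the 3 nearest to ALB in ratio. Of 43424 symbols, 42739 matched RefSeq. HPR, named whatever its value, had no counts. A few named genes are left out of the text.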

Additional observations from a re-analysis of the deposited data

How the results depend on the processing

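Other settings were DESeq2 1.42.0 size factors, total counts, upper-quartile factors, median centring, library sizes that leave out mitochondrial genes and the 20 most abundant, minimums of 10 and 100 counts or none, 2 added to each count, a control thinned to the GLE depth, and the whole interval beyond 2-fold. Removal of the GC trend (lowess span 0.3, GENCODE 29) was added after seeing the data. Under all of these, ALB stayed between 0.587 and 0.639, TTR between 0.644 and 0.695 and TF between 0.819 and 0.887, and 0 carrier genes were beyond 2-fold. The minimums and the whole-interval rule cannot change a gene's ratio, and the 2 added to each count entered only the log2 ratios. The ranges of the ratios therefore come from the other settings. The number with an interval above 1 was 1, but 0 with total counts, 0 with upper-quartile factors and 2 with the GC trend removed, where the number below 1 was 3 in place of 4. Without mitochondrial and the 20 most abundant other genes, the 10 genes took 1.04% of control and 0.769% of GLE counts. The share of ALB among the carrier counts was 66.7%, 61.5%, 66.8%, 65.7% and 59.4% in the control with TF, RBP4, AHSG, AMBP or TTR left out of the denominator, and 56.3%, 51.8%, 57.9% and 55.7% in the GLE library with TF, RBP4, AHSG or AMBP left out. Liver transcription factors at least 2-fold lower numbered 11, and 7 by the whole interval. Receptors and partners numbered 4, 2 with a minimum of 100 counts, 2 with the GC trend removed and 0 by the whole interval. Acute-phase genes numbered 1, 3 with total counts, and 0 by the whole interval or with the GC trend removed. No paired analysis was possible because each group has 1 library, and no library could be left out. Depth limits HP and FETUB, which were not measured, and HPX and VTN, whose intervals take in 1 and reach down to 0.439 and 0.656.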
